A study of Mus musculus with 672 samples.

Results

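The Polycomb complex genes were 32 genes chosen by name from the 26127 genes of the expression table, 11 of Polycomb repressive complex 2 (PRC2) and 21 of Polycomb repressive complex 1 (PRC1), and all 32 were present. They were followed by Smart-seq2, which sequences polyadenylated transcripts of single sorted cells, while female mouse embryonic fibroblasts (MEFs) became induced pluripotent stem cells (iPSCs). The MEFs came from a cross of Mus with Cast mice and carried an X-linked GFP reporter (X-GFP) on the Mus X chromosome. They had been transduced with lentiviruses for doxycycline-inducible Oct4, Sox2, Klf4 and Myc (tetO-FUW-OSKM) and for the activator that responds to doxycycline (FUW-M2rtTA). In the Xi-Mus groups, the starting cells were sorted as GFP-negative, with the Mus X inactive. These groups were MEFs at day 0, intermediates after 8, 9, 10 or 12 days of doxycycline with ascorbic acid, and iPSCs grown from picked colonies after both agents had been withdrawn. One more group, Xi-Cast at day 12, started from GFP-positive MEFs with the Cast X inactive. Intermediates were sorted on SSEA1 (FUT4 in the labels), so they stand for the cells that had reached this surface marker and not for the whole culture.

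Polycomb complexes keep genes silent by marking chromatin. PRC2 methylates lysine 27 of histone H3 through the enzyme EZH1 or EZH2 together with EED, SUZ12 and RBBP4 or RBBP7. Its accessory proteins define alternative assemblies, with a PCL protein (MTF2, PHF1 or PHF19) in one and JARID2 with AEBP2 in the other. PRC1 ubiquitinates histone H2A through RING1 or RNF2 bound to one of the PCGF proteins. Canonical PRC1 holds a CBX protein, which binds the PRC2 mark, and a PHC protein, whereas variant PRC1 holds RYBP or YAF2 in their place. In pluripotent stem cells the complexes occupy promoters of developmental regulators, and PRC2 and PRC1 also act on the inactive X chromosome.

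Of 672 labelled cells, 96 in each group, 567 were kept, namely 86 MEFs, 82, 83, 80 and 80 Xi-Mus intermediates of days 8, 9, 10 and 12, 90 iPSCs and 66 Xi-Cast intermediates. The depth ranged from 15053 to 2098345 gene-assigned reads per cell, and group medians lay between 505799 and 726843. A level is the mean over the cells of a group of a gene's reads per 100000 reads of the cell, and 2 groups are set against each other by the log2 of the ratio of their levels, with 1 added to each, which understates differences of low genes. Each group was 1 plate and so 1 sample. No comparison has a replicate check, and no test or p-value is given. Days 0 to 10 carry one library prefix in the labels and both day 12 groups and the iPSCs another, and between these sets of plates the effect of time and of the library set cannot be told apart. The labels of the cells matched their markers. The summed level of 18 fibroblast markers was 2797 at day 0 and between 16.8 and 106 in the other groups. That of 12 pluripotency markers was 0.389 at day 0, with 7 of them at 0, and 709 in iPSCs. The summed level of 10 epithelial markers was 4.68 at day 0, 804 to 999 in Xi-Mus intermediates, 104 in iPSCs and 724 in Xi-Cast intermediates, and that of 9 blood and macrophage markers lay between 2.51 at day 0 and 60.8 at day 10. One Xi-Mus cell each at days 8, 10 and 12, 1 iPSC and 1 Xi-Cast cell had a fibroblast marker sum above the lowest MEF or reads of at least 5 blood markers, and no count of members below changed by more than 1 without them.

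**Figure D1:**
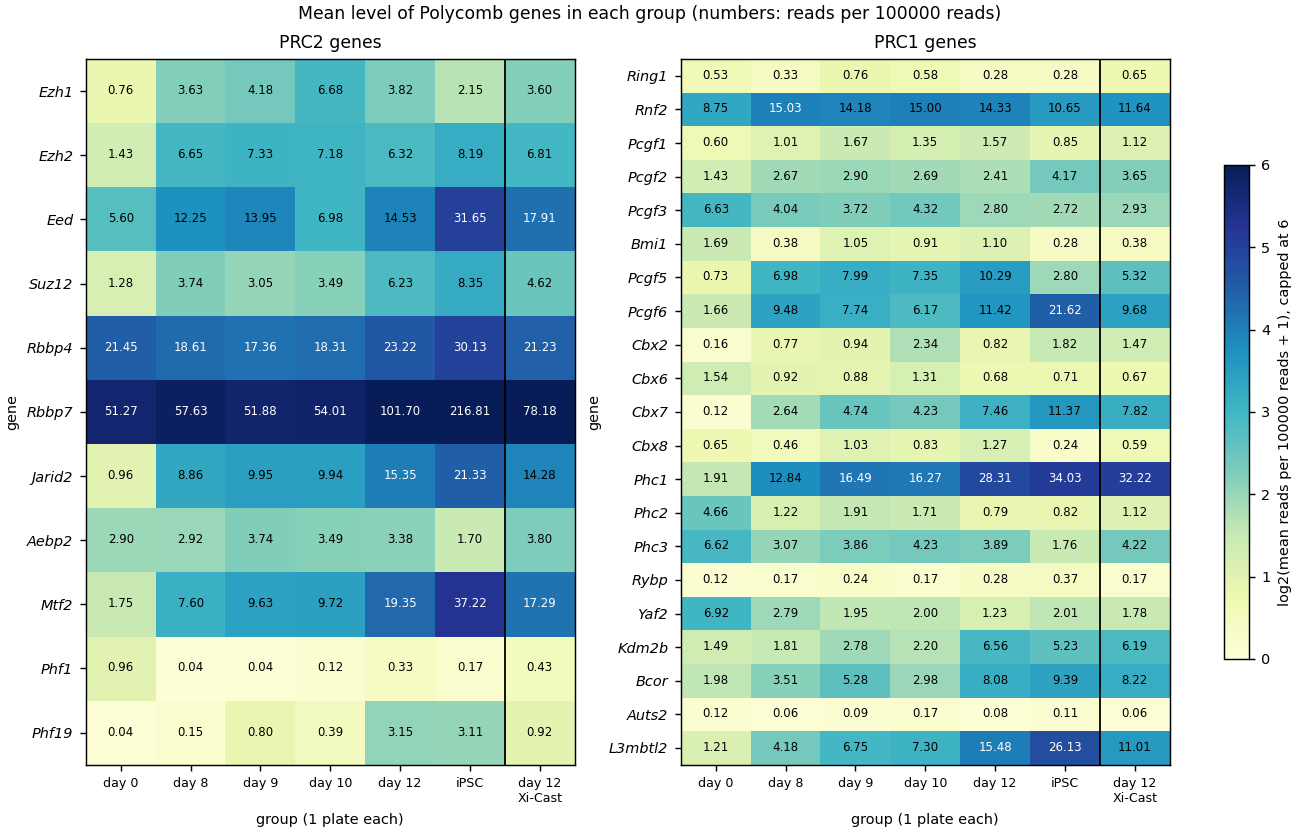
Mean level of each PRC2 gene (left) and PRC1 gene (right) in the 7 groups, in reads per 100000 reads, printed in the cell and coloured on a log2 scale. Each column is 1 plate, and the line sets off the Xi-Cast plate. Mtf2 ran from 1.75 at day 0 to 37.2 in iPSCs and Phc1 from 1.91 to 34, while Rybp and Auts2 stayed under 1 throughout.

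Between day 0 MEFs and iPSCs, most PRC2 genes were higher in iPSCs, while PRC1 genes lay in both directions. In iPSCs, 7 of the 11 PRC2 genes were higher by at least 2-fold and 0 lower. Their median log2 ratio was 1.99. Of the 21 PRC1 genes, 9 were at least 2-fold higher and 5 at least 2-fold lower, with a median of 0.26. Among all 9525 genes with a mean level over the groups of at least 1, 21.6% were at least 2-fold higher and 17.8% at least 2-fold lower, and the median was 0.14. The same minimum was met by 25 of the 32 members. It was missed by Phf1 of PRC2 and by Ring1, Bmi1, Cbx6, Cbx8, Rybp and Auts2 of PRC1, and some members, such as Phf19 and Cbx2, met it only through the groups where they were high. Among the members that met it, PRC1 had 9 higher and 4 lower of 15, and PRC2 had 7 higher and 0 lower of 10. The difference between the complexes was not tested.

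Day 8, the first sorted intermediate, was set against the same MEF plate. At day 8, 6 of 11 PRC2 genes were at least 2-fold above day 0 (Ezh1, Ezh2, Eed, Suz12, Jarid2 and Mtf2) and none was 2-fold below. Of the PRC1 genes, 5 were at least 2-fold above (Pcgf5, Pcgf6, Cbx7, Phc1 and L3mbtl2) and 2 below (Phc2 and Yaf2). Over all genes compared, 21.3% were at least 2-fold higher at day 8 and 11.3% lower, with a median log2 ratio of 0.31. Scaling by the median of ratios in place of the read total moved this median to 0.06 at day 8 and that of iPSCs against day 0 from 0.14 to -0.02. The higher genes then made up 43.8% in place of 54.9% of all genes past 2-fold in iPSCs, and 50.9% in place of 65.3% at day 8. Under that scaling the members at least 2-fold higher in iPSCs were 8 of PRC1 and 7 of PRC2, and at day 8 they were 5 and 4, without Eed (0.72) and Suz12 (0.85). Those at least 2-fold lower at day 8 became 4 of PRC1, with Phc3 (-1.19) and Bmi1 (-1.15) added, and 1 of PRC2, Phf1 (-1.06), while in iPSCs they remained 5 and 0 in number. Markers of growth moved with these genes. The summed level of 22 proliferation genes was 175 at day 0, 569 at day 8 and 958 in iPSCs, and 20 of the 22 were at least 2-fold higher in iPSCs. Their part in the Polycomb levels was not tested.

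**Figure D2:**
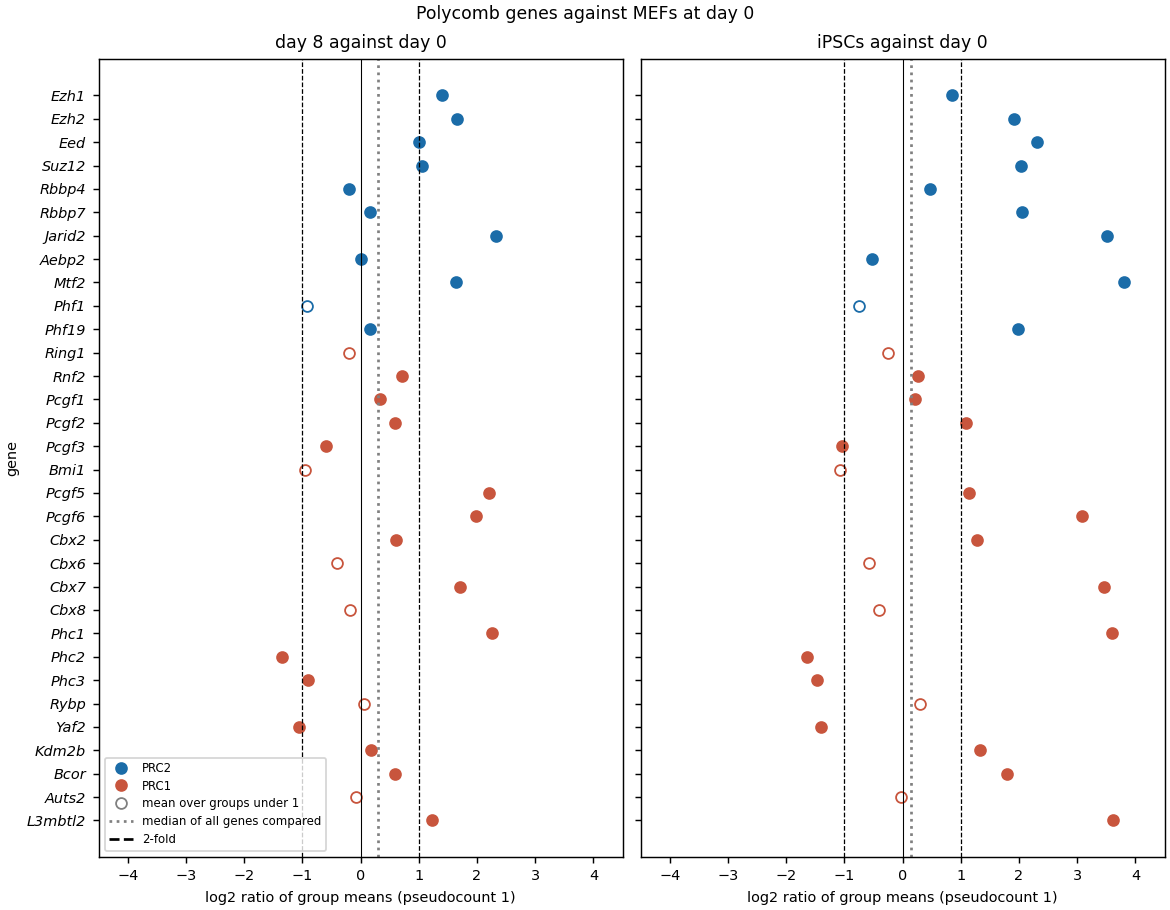
Log2 ratio of each member against day 0, at day 8 (left) and in iPSCs (right), blue for PRC2 and red for PRC1. Open circles are members with a mean level under 1, dashed lines mark 2-fold and the dotted line the median of all genes compared. In iPSCs the highest points were Mtf2 at 3.80, L3mbtl2 at 3.62 and Phc1 at 3.59, and the lowest was Phc2 at -1.64.

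Of the 6 core genes of PRC2, Ezh2, Eed, Suz12 and Rbbp7 were at least 2-fold higher in iPSCs than in MEFs, and Ezh1 and Rbbp4 were not. Levels of Ezh2, the main H3K27 methyltransferase of dividing cells, were 1.43 in MEFs, then 6.65, 7.33, 7.18 and 6.32 by day in Xi-Mus intermediates, 8.19 in iPSCs and 6.81 in Xi-Cast intermediates. Ezh2 was thus low at day 0 and close to its iPSC level from day 8 onward, with a log2 ratio to day 0 of 1.65 at day 8 and 1.92 in iPSCs. Summed over cells it had 755 reads at day 0, or 1.49 per 100000 (exact 95% Poisson interval 1.39 to 1.6), and 4800 in iPSCs, or 8.24 (8.01 to 8.48). Such intervals cover counting error only, since the reads carry no molecular identifiers and PCR copies count again. Its paralogue Ezh1, which encodes a weaker methyltransferase prominent in non-dividing cells, had levels of 0.758 in MEFs, then 3.63, 4.18, 6.68 and 3.82 by day in Xi-Mus intermediates, 2.15 in iPSCs and 3.6 in Xi-Cast intermediates. Ezh1 peaked at day 10 and was -0.61 on the log2 scale in iPSCs against day 12. Per kb of exon, Ezh2 made up 67.8% in MEFs, then 67.1%, 66.1%, 54.5% and 64.8% by day in Xi-Mus intermediates, 80.9% in iPSCs and 67.8% in Xi-Cast intermediates of the summed Ezh1 and Ezh2 level, so Ezh2 led in all 7 groups, least at day 10 and most in iPSCs. The summed level of both genes was 0.316 per kb at day 0, 1.48 at day 8 and 1.51 in iPSCs.

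Eed, which encodes the subunit that reads methylated H3K27, and Suz12, the scaffold of the complex, were highest in iPSCs, a plate of the second library set. Levels of Eed were 5.6 in MEFs, then 12.3, 14, 6.98 and 14.5 by day in Xi-Mus intermediates, 31.7 in iPSCs and 17.9 in Xi-Cast intermediates. They dipped at day 10 (-0.91 against day 9), and the iPSC level was 1.07 above day 12. Levels of Suz12 were 1.28 in MEFs, then 3.74, 3.05, 3.49 and 6.23 by day in Xi-Mus intermediates, 8.35 in iPSCs and 4.62 in Xi-Cast intermediates, with the highest values at day 12 and in iPSCs. Rbbp4 and Rbbp7 encode histone-binding proteins that PRC2 shares with other chromatin complexes. Rbbp4 ranged from 17.4 at day 9 to 30.1 in iPSCs, and 18% of its exonic bases overlap other genes that unstranded reads cannot separate. Levels of the X-linked gene Rbbp7 were 51.3 in MEFs, then 57.6, 51.9, 54 and 102 by day in Xi-Mus intermediates, 217 in iPSCs and 78.2 in Xi-Cast intermediates. They stayed between 51.3 and 57.6 up to day 10 and stood apart on the plates of the second library set, with a log2 ratio of 0.90 for day 12 against day 10 and 1.08 for iPSCs against day 12. Summing reads over cells, so that deep cells weigh more, put both Rbbp7 (0.996) and Eed (0.95) just under 2-fold for iPSCs against day 12. Over all 318 X-linked genes compared, the median log2 ratio of iPSCs to day 0 was 0.75, against 0.13 for 9121 autosomal genes and 2.06 for Rbbp7. Per kb, Rbbp7 made up 87.8% of the RBBP level at day 0 and 95.6% in iPSCs.

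Ezh2, Suz12 and Phf19 share a sequence feature that the choice of members did not use, and their promoters are printed for it. Promoter windows of 300 bases were taken from RefSeq (GRCm38.p6) for 27 of the 32 members (all but Pcgf1, Cbx2, Rybp, Yaf2 and Auts2), and both strands were searched for the E2F-type sites TTTCCCGC, TTTGGCGC, TTTCGCGC and TTTGCCGC, which are bound by E2F factors of the cell cycle. Of the 27 members, 3 held such a site, and of all 27025 genes with a window 2.61% did. The site is in capitals, and in Phf19, which encodes a PCL protein, it lies on the reverse strand.
Ezh2 promoter (chr6:47594981-47595280, minus strand): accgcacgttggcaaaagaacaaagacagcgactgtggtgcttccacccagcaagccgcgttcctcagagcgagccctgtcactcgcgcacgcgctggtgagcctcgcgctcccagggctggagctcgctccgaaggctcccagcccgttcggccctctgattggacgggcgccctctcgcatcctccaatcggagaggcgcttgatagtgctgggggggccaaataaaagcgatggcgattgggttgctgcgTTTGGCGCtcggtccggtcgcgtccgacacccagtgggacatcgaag
Suz12 promoter (chr11:79992856-79993155, plus strand): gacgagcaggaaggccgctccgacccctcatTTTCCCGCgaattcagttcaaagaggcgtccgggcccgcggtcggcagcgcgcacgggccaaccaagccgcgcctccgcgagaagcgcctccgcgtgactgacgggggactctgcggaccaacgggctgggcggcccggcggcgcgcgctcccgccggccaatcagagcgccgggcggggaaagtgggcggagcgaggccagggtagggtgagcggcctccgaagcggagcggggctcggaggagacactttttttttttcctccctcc
Phf19 promoter (chr2:34913927-34914226, minus strand): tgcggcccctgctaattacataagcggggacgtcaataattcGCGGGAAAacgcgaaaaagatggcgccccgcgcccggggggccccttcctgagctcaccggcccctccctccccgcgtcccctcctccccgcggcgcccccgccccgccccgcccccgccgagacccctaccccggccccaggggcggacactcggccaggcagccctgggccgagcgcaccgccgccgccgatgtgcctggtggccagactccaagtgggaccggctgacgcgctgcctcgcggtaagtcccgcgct
The matches describe the letters in these windows, and binding was not measured. The POU octamer ATGCAAAT, the site type of Oct4, was present in 1 of the 27 members (Phc2) and in 1.97% of all genes with a window.

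The accessory subunits of PRC2 held the largest differences of the complex. Levels of Mtf2, the PCL protein that recruits PRC2 to CpG-rich DNA, were 1.75 in MEFs, then 7.6, 9.63, 9.72 and 19.4 by day in Xi-Mus intermediates, 37.2 in iPSCs and 17.3 in Xi-Cast intermediates. Every later group was above day 0, and iPSCs were highest, with 1.65 at day 8 and 3.80 in iPSCs on the log2 scale. The paralogue Phf19 had levels of 0.0353 in MEFs, then 0.154, 0.802, 0.39 and 3.15 by day in Xi-Mus intermediates, 3.11 in iPSCs and 0.919 in Xi-Cast intermediates. It was almost absent at day 0, with reads in 3 of 86 cells, and at day 12 a single cell carried 24.4% of its summed level. Phf1 ran the other way at low levels, with 0.959 at day 0, 0.0361 at day 8 and 0.169 in iPSCs, and 39.3% of its exonic bases overlap other genes. Per kb of exon, Mtf2 and Phf1 shared the PCL level at day 0, with 52.1% and 46.7%. From day 8 onward Mtf2 held between 82.5% and 97%, and Phf1 at most 3.71%. The summed PCL level was 0.589 per kb at day 0, 1.37 at day 8, 4.12 at day 12 and 7.2 in iPSCs.

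In the other PRC2 assembly, the subunits separated. Levels of Jarid2, which encodes a DNA-binding cofactor that stimulates PRC2, were 0.959 in MEFs, then 8.86, 9.95, 9.94 and 15.4 by day in Xi-Mus intermediates, 21.3 in iPSCs and 14.3 in Xi-Cast intermediates, and the log2 ratio to day 0 was 2.33 at day 8 and 3.51 in iPSCs. Those of its zinc-finger partner Aebp2 were 2.9 in MEFs, then 2.92, 3.74, 3.49 and 3.38 by day in Xi-Mus intermediates, 1.7 in iPSCs and 3.8 in Xi-Cast intermediates. Aebp2 was nearly flat until day 12 and lowest in iPSCs (-0.53 against day 0). Compared per kb within single cells that had reads of either gene, Jarid2 exceeded Aebp2 in 16.7% of 60 cells at day 0 (exact 95% binomial interval 8.29 to 28.5%), 64.1% of 64 at day 8 and 96.7% of 90 iPSCs (90.6 to 99.3%).

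The genes of the catalytic subunits of PRC1 differed little between day 0 and iPSCs. Their log2 ratios were 0.26 for Rnf2 and -0.26 for Ring1, which was under the minimum. At day 8 Rnf2 was 0.72 above day 0. Levels of Rnf2, which encodes RING1B, the main H2A ubiquitin ligase of stem cells, were 8.75 in MEFs, then 15, 14.2, 15 and 14.3 by day in Xi-Mus intermediates, 10.6 in iPSCs and 11.6 in Xi-Cast intermediates. No group was 2-fold from day 0, the intermediates were the highest, and iPSCs were 0.26 on the log2 scale from day 0, or 0.00 after median-of-ratios scaling. Ring1, its paralogue, stayed between 0.279 and 0.763. Per kb, Rnf2 held 92.9% of the Ring level at day 0 and 96.8% in iPSCs, so the leading ligase was Rnf2 in MEFs and in iPSCs alike.

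The PCGF genes, whose products set the type of PRC1, changed their order. Pcgf3 led per kb at day 0 with 30.5% of the family, and Pcgf6 led in every later group. Levels of Pcgf6, whose protein forms a variant PRC1 with MGA and L3MBTL2, were 1.66 in MEFs, then 9.48, 7.74, 6.17 and 11.4 by day in Xi-Mus intermediates, 21.6 in iPSCs and 9.68 in Xi-Cast intermediates, and its share per kb was 14.5% in MEFs, then 43.5%, 33%, 30.1% and 42.9% by day in Xi-Mus intermediates, 65.4% in iPSCs and 43.2% in Xi-Cast intermediates. The iPSC level was the highest, 3.09 above day 0 on the log2 scale. Pcgf3, which forms another variant complex, had levels of 6.63 in MEFs, then 4.04, 3.72, 4.32 and 2.8 by day in Xi-Mus intermediates, 2.72 in iPSCs and 2.93 in Xi-Cast intermediates and was -1.04 in iPSCs against day 0. Within single cells with reads of either gene, Pcgf6 exceeded Pcgf3 per kb in 30.7% of 75 day 0 cells, 75.3% of 73 day 8 cells and 96.7% of 90 iPSCs.

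Pcgf5 was highest in the intermediates. It belongs to the same variant type of complex as Pcgf3. Its levels were 0.729 in MEFs, then 6.98, 7.99, 7.35 and 10.3 by day in Xi-Mus intermediates, 2.8 in iPSCs and 5.32 in Xi-Cast intermediates. All intermediates exceeded both day 0 and iPSCs, with 2.21 for day 8 against day 0 and -1.57 for iPSCs against day 12. It was the 1 member at least 2-fold lower in iPSCs than at day 12, where 14.2% of all genes were. Summed over cells, Pcgf5 had 9.4 reads per 100000 at day 12 (9.15 to 9.66) and 2.81 in iPSCs (2.68 to 2.95). The median cell was at 5.93 at day 12 and at 0 at day 0 and in iPSCs.

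The genes of the canonical PCGF proteins lay in opposite directions. Pcgf2, which encodes MEL18, had levels of 1.43 in MEFs, then 2.68, 2.9, 2.69 and 2.41 by day in Xi-Mus intermediates, 4.17 in iPSCs and 3.65 in Xi-Cast intermediates, and was 1.09 in iPSCs against day 0 but 0.91 after median-of-ratios scaling, under 2-fold. Bmi1, its paralogue and a known brake on senescence of fibroblasts, had a log2 ratio of -1.07 in iPSCs against day 0. Its levels were 1.69 in MEFs, then 0.384, 1.05, 0.905 and 1.1 by day in Xi-Mus intermediates, 0.282 in iPSCs and 0.382 in Xi-Cast intermediates. Bmi1, which was under the minimum, thus did not fall steadily. All intermediates lay between day 0 and iPSCs, with day 8 and Xi-Cast closest to iPSCs. Pcgf1, of the BCOR and KDM2B complex, ranged from 0.595 at day 0 to 1.67 at day 9. Summed per kb, the canonical genes Pcgf2 and Bmi1 were at 0.832 at day 0 and 1.25 in iPSCs, and the variant genes Pcgf1, Pcgf3, Pcgf5 and Pcgf6 at 1.44 and 5.32.

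**Figure D3:**
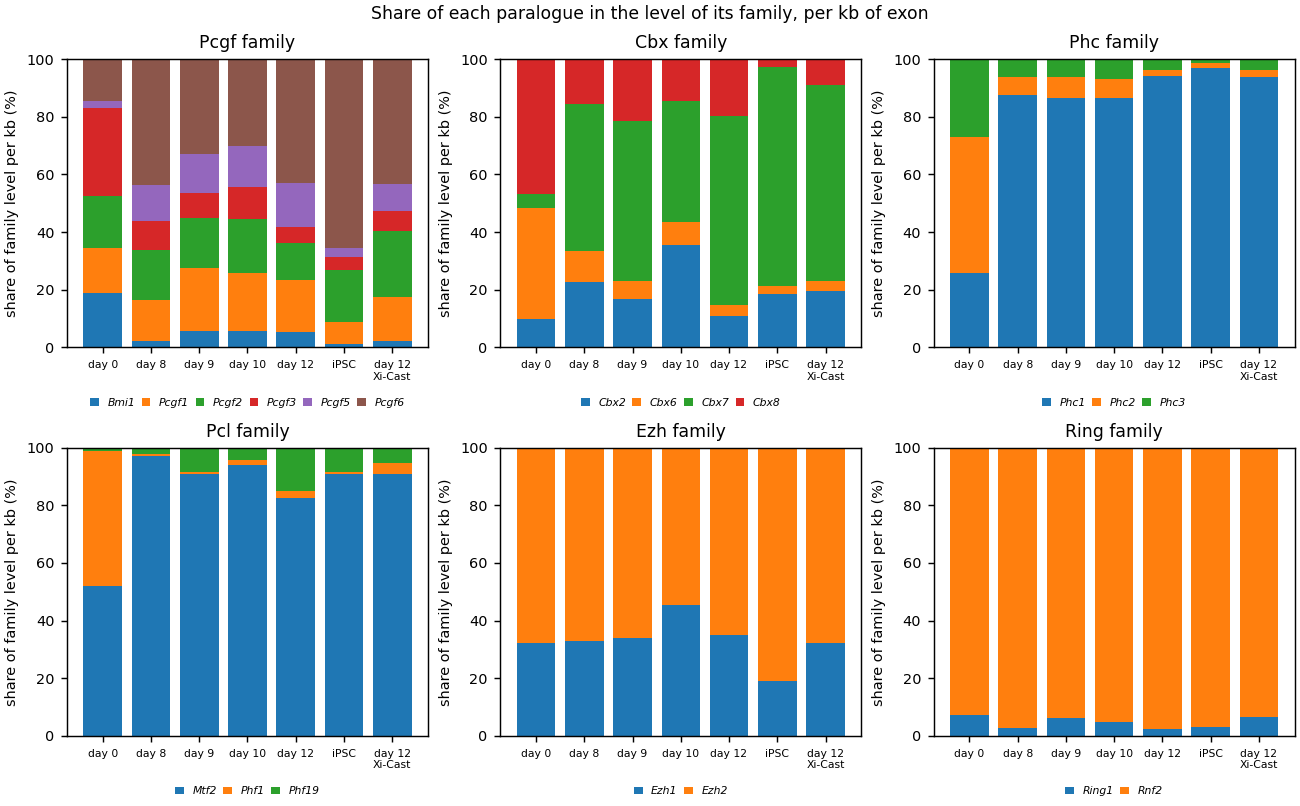
Share of each paralogue in the summed level of its family (%), after division by exonic length in kb, in the 7 groups. The leading PCGF, CBX and PHC gene differed between day 0 and iPSCs, while Mtf2, Ezh2 and Rnf2 led their families at both. Mtf2 led only narrowly at day 0, with 52.1% against 46.7% for Phf1. Phc1 held 25.7% of its family at day 0 and 96.7% in iPSCs.

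Of 8 families compared per kb, 3 had another leading paralogue in iPSCs than at day 0 (PCGF, CBX and PHC), and under all 6 alternative settings the number was 3. No setting left out exonic bases shared with other genes, which are 39.3% for Phf1 and 6.93% for Mtf2. These 2 genes were close at day 0, with 46.7% and 52.1%, so which of them led there is not settled. The CBX genes encode the chromodomain subunits that bind methylated H3K27. Levels of Cbx7, the CBX protein of pluripotent cells, were 0.122 in MEFs, then 2.64, 4.74, 4.23 and 7.46 by day in Xi-Mus intermediates, 11.4 in iPSCs and 7.82 in Xi-Cast intermediates. Cbx7 was nearly absent at day 0, where 3 of 86 cells had reads and 1 of them carried 81.6% of the level, and 97.8% of iPSCs had reads. Its share of the family per kb was 4.99% in MEFs, then 50.9%, 55.5%, 42.1% and 65.6% by day in Xi-Mus intermediates, 75.9% in iPSCs and 68% in Xi-Cast intermediates. Cbx2, a CBX protein that compacts nucleosomes, had levels of 0.159 in MEFs, then 0.773, 0.944, 2.34 and 0.818 by day in Xi-Mus intermediates, 1.82 in iPSCs and 1.47 in Xi-Cast intermediates and a share of 35.4% at day 10. Cbx8 and Cbx6 were low in all groups, at most 1.27 and 1.54, yet held 46.7% and 38.5% of the small family level at day 0 and 2.81% and 2.88% in iPSCs. Which of them led at day 0 depended on the length used, with Cbx6 ahead by the longest transcript or without division by length.

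The PHC genes encode the polyhomeotic subunits that polymerise and cluster canonical PRC1, and their order changed as well. Levels of Phc1 were 1.91 in MEFs, then 12.8, 16.5, 16.3 and 28.3 by day in Xi-Mus intermediates, 34 in iPSCs and 32.2 in Xi-Cast intermediates. Those of Phc2 were 4.66 in MEFs, then 1.22, 1.91, 1.71 and 0.787 by day in Xi-Mus intermediates, 0.815 in iPSCs and 1.12 in Xi-Cast intermediates. Phc1 was lowest and Phc2 highest at day 0, and the ratios of iPSCs to day 0 were 3.59 and -1.64 on the log2 scale. Phc3 had levels of 6.62 in MEFs, then 3.07, 3.86, 4.23 and 3.89 by day in Xi-Mus intermediates, 1.76 in iPSCs and 4.22 in Xi-Cast intermediates and was -1.46 in iPSCs against day 0. Phc1 exceeded Phc2 per kb in 26.8% of 71 day 0 cells with reads of either (16.9 to 38.6%), in 87.9% of 66 day 8 cells (77.5 to 94.6%) and in 98.9% of 89 iPSCs (93.9 to 99.97%). Without division by length, Phc3 in place of Phc2 led at day 0. The summed PHC level was 1.4 per kb at day 0 and 6.64 in iPSCs.

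Subunits of variant PRC1 also split. Yaf2 and Rybp encode alternative partners of RNF2 that stimulate its activity. Levels of Yaf2 were 6.92 in MEFs, then 2.79, 1.95, 1.997 and 1.23 by day in Xi-Mus intermediates, 2.01 in iPSCs and 1.78 in Xi-Cast intermediates, highest at day 0 and -1.40 in iPSCs. Rybp was low in every group, from 0.122 at day 0 to 0.372 in iPSCs, so Yaf2 held over 90% of the pair per kb throughout, between 91.8% and 99.3%. Within single cells with reads of either gene the lead was less even. There Yaf2 exceeded Rybp per kb in 97.4% of 76 day 0 cells, 55% of 40 Xi-Mus day 12 cells (38.5 to 70.7%) and 69.7% of 66 iPSCs. Only uniquely mapped reads were counted, and whether copies of these genes elsewhere in the genome took reads from them was not tested. L3mbtl2, which encodes an MBT-domain protein of the PCGF6 complex, had levels of 1.21 in MEFs, then 4.18, 6.75, 7.3 and 15.5 by day in Xi-Mus intermediates, 26.1 in iPSCs and 11 in Xi-Cast intermediates. It was the second highest member by the ratio of iPSCs to day 0 (3.62), and 17.2% of its exonic bases overlap Chadl. Kdm2b encodes the CpG-binding protein that brings PCGF1 complexes to DNA, and its levels were 1.49 in MEFs, then 1.81, 2.78, 2.2 and 6.56 by day in Xi-Mus intermediates, 5.23 in iPSCs and 6.19 in Xi-Cast intermediates. They stayed at or under 2.78 up to day 10 and were 5.23 or more on the plates of the second library set. The X-linked corepressor gene Bcor, of the same complex, had levels of 1.98 in MEFs, then 3.51, 5.28, 2.98 and 8.08 by day in Xi-Mus intermediates, 9.39 in iPSCs and 8.22 in Xi-Cast intermediates, with 1.80 for iPSCs against day 0. Auts2 did not exceed 0.17 in any group.

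Steps between successive intermediates up to day 10 were under 2-fold for all 32 members, as for nearly all genes compared. At day 12 they were larger for some members. None of the 32 was 2-fold higher or lower at day 9 than at day 8, where 0.966% of all genes compared were higher and 0.703% lower. The same held for day 10 against day 9, with 1.4% and 0.388% of all genes. Between day 10 and day 12 of Xi-Mus, Phf19 (1.58), Kdm2b (1.24) and Bcor (1.19) were at least 2-fold higher and no member lower, against 2.91% and 2.79% of all genes. L3mbtl2 (0.99), Eed (0.96), Mtf2 (0.93) and Rbbp7 (0.90) lay just under. The median was 0.58 for PRC2 genes, 0.12 for PRC1 genes and -0.05 for all genes. Over the same step 9 of 12 pluripotency markers were at least 2-fold higher. From day 12 to iPSCs, Rbbp7 and Eed were at least 2-fold higher and Pcgf5 lower, with 3.12% and 14.2% of all genes past 2-fold in these directions.

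Between the Xi-Cast and Xi-Mus plates at day 12, 31 of 32 members were within 2-fold, as were nearly all genes compared. The 32 include 7 members under the minimum, which the shares of all genes leave out. The comparison puts side by side intermediates that started with opposite X chromosomes inactive. The exception was Phf19, with a log2 ratio of Xi-Cast to Xi-Mus of -1.11, and no member was 2-fold higher, while 1.7% of all genes were at least 2-fold lower and 0.556% higher. Phf19 was at 0.919 in Xi-Cast and 3.15 in Xi-Mus cells, and 1 cell carried 37.8% and 24.4% of these levels. Pcgf5 (-0.84), Bmi1 (-0.61) and Cbx8 (-0.52) followed in size. The X-linked members Rbbp7 and Bcor differed by -0.38 and 0.02. The medians were -0.10 for PRC2 genes, 0.00 for PRC1 genes and 0.02 for all genes compared.

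**Figure D4:**
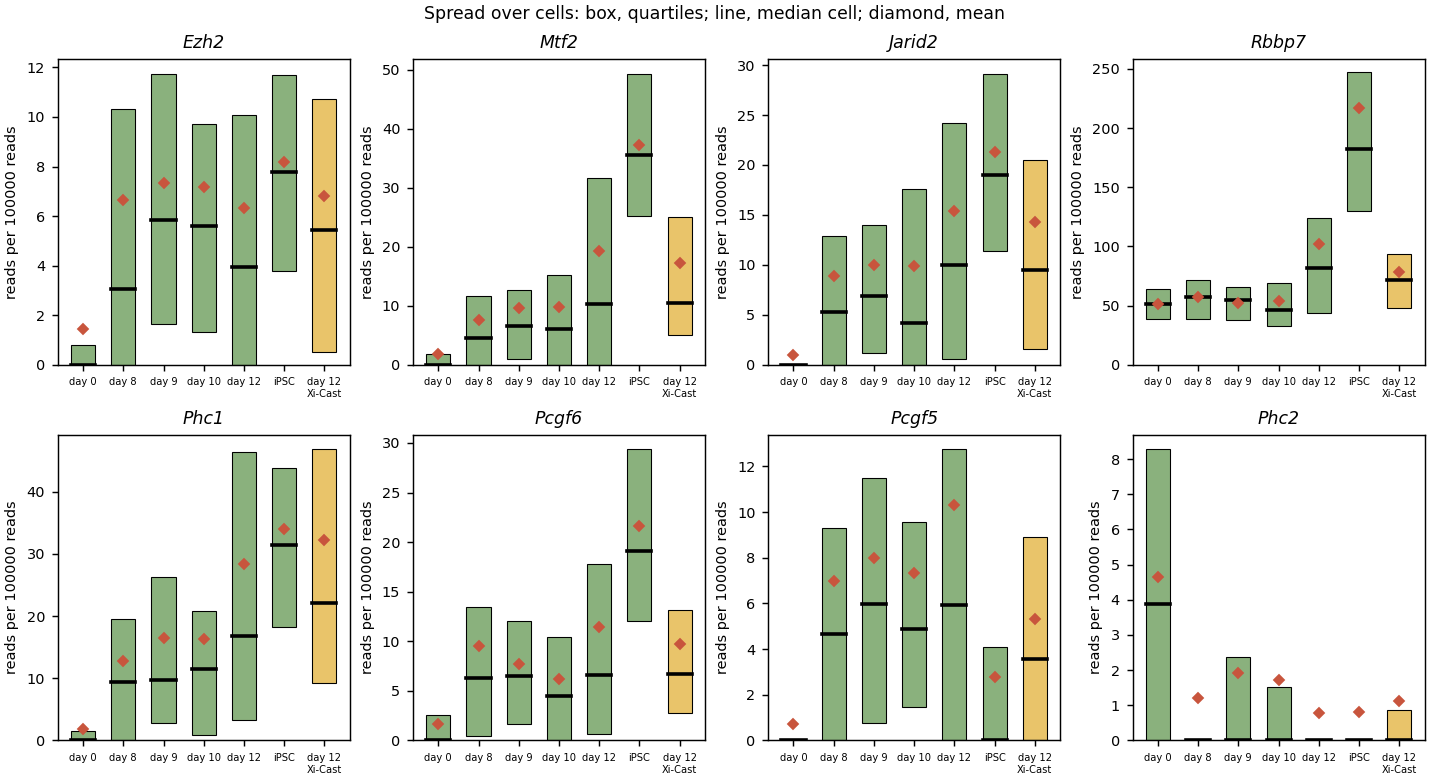
Spread of 8 members over the cells of each group, in reads per 100000 reads (boxes, lower to upper quartile; line, median cell; diamond, mean; yellow, Xi-Cast). The box of Mtf2 ran from 0 to 31.7 at day 12 and from 25.1 to 49.4 in iPSCs.

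Group levels stood for cells that varied widely. For Mtf2 the lower and upper quartile were 0 and 31.7 at day 12 and 25.1 and 49.4 in iPSCs, so the upper end of the day 12 cells reached into the iPSC range while the lower quartile was at 0. For Phc1 the quartiles were 3.27 and 46.5 at day 12 and 18.2 and 43.8 in iPSCs. Reads of Mtf2 were found in 38.4% of day 0 cells (exact 95% binomial interval 28.1 to 49.5%), 70% of day 12 cells and 100% of iPSCs. With each cell thinned to 100000 reads, leaving out at most 2 shallower cells per group, the shares were 31%, 70% and 98.9%. Phc2 showed the reverse, with reads in 72.1% of day 0 cells and 21.1% of iPSCs, or 66.7% and 19.3% when thinned.

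The variation among cells was set against the pluripotency markers, first at day 12. Spearman's rank correlation of each member with the summed level of the 12 markers was taken across the cells of a plate, for members with reads in at least 50% of its cells. The points share the plate, the depth of each cell and the scaling to 100000 reads, and the correlation is given as a description. Over 80 Xi-Mus day 12 cells, the median rank correlation of 19 members was 0.51 and 13 of them had 0.3 or more, while 25.4% of 5419 other genes did, with a median of 0.07. Over 66 Xi-Cast day 12 cells, the median of 18 members was 0.36 and 10 had 0.3 or more, against 18.9% of 5951 other genes and a median of 0.03. Phc2, Yaf2 and Bmi1, at least 2-fold lower in iPSCs than at day 0, did not pass the 50% filter on either plate. Pcgf3 and Phc3, also lower in iPSCs, passed it in Xi-Mus cells and were at -0.16 and -0.18. Phc1 and Mtf2 had the highest values on both plates, 0.70 and 0.70 in Xi-Mus and 0.71 and 0.71 in Xi-Cast cells. Kdm2b (0.64 and 0.52), Jarid2 (0.62 and 0.63) and Cbx7 (0.59 and 0.53) were also among the high ones. Pcgf5 alone among the members was at -0.3 or below, at -0.43 in Xi-Mus and -0.46 in Xi-Cast cells. Of other genes, 14.7% and 14.3% were at -0.3 or below on these plates. Rnf2 was near 0 at -0.04 and -0.09. On the earlier Xi-Mus plates, 3 of 15 members were at 0.3 or more at day 8, 4 of 21 at day 9 and 6 of 20 at day 10, against 3.42%, 3.15% and 11.6% of other genes. Phc1 was at 0.48, 0.34 and 0.62 on these plates by day, Mtf2 at 0.33, 0.34 and 0.37, and Pcgf5 at 0.06, -0.16 and 0.05, and Rbbp4 reached 0.60 at day 10. The rank correlation of the members with depth lay between -0.11 and 0.34 in Xi-Mus and -0.22 and 0.29 in Xi-Cast day 12 cells. With the summed level of the 22 proliferation genes, the median rank correlation of the members was 0.42 in Xi-Mus and 0.25 in Xi-Cast day 12 cells, and that of other genes 0.11 and 0.09.

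**Figure D5:**
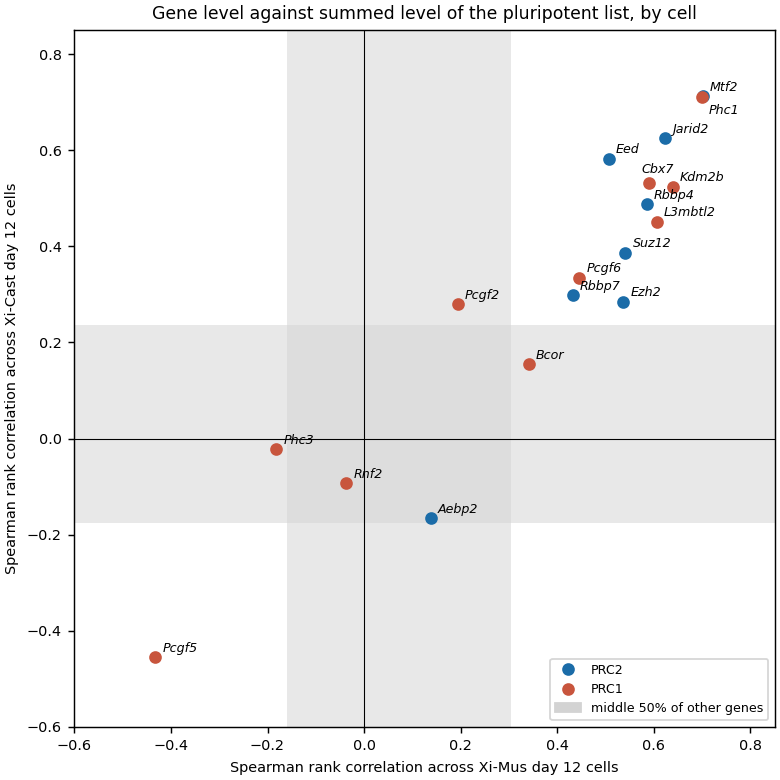
Spearman's rank correlation of each member with the summed pluripotency markers across cells, in Xi-Mus (horizontal) and Xi-Cast (vertical) day 12 cells, for the members with reads in at least 50% of cells on both plates. Grey bands hold the middle 50% of other genes. Phc1 and Mtf2 sit at the upper right and Pcgf5 at the lower left.

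In iPSCs the values were lower. Across 90 iPSCs the median rank correlation with the pluripotency markers over 19 members was 0.05, with Eed highest at 0.39 and Rbbp7 and Phc1 lowest at -0.36 and -0.33. Other iPSC genes had a median of -0.02. Day 0 gives no information here, since 7 of the 12 markers were at 0 and the median cell had no reads of any. With the proliferation genes, Rbbp7 had 0.49 at day 0, and Ezh2 had 0.41, 0.44, 0.55 and 0.56 by day in the Xi-Mus intermediates and 0.05 in iPSCs. In Xi-Cast intermediates Ezh2 had 0.45. The lowest iPSC had a summed proliferation level of 429, and the lowest Xi-Mus day 12 cell one of 17.5.

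Other genes of Polycomb biology were read from lists made by role. Of 33 further components measured, 27 met the minimum, 10 were at least 2-fold higher in iPSCs than at day 0 and none was 2-fold lower, with a median of 0.35, where 21.6% of all genes were higher, 17.8% lower and the median was 0.14. Epop, which encodes a PRC2 cofactor that occupies the same assembly as MTF2, was at 0.0601 at day 0, 10.9 at day 8 and 14.8 in iPSCs. Sfmbt2, an MBT-domain gene, was at 0.441 at day 0, 2.46 at day 12 and 15.5 in iPSCs. Usp7, a ubiquitin protease found in PCGF1 complexes, and Wdr5, a WD40 protein of the PCGF6 complex, had log2 ratios of 2.80 and 2.31. Of 13 genes of opposing enzymes, 12 met the minimum and 10 of them stayed within 2-fold, as did 5776 of all 9525 genes compared. The H3K27 demethylase gene Kdm6b was outside it at -1.44, from 3.61 at day 0 to 0.706 in iPSCs, and the H3K4 methyltransferase gene Kmt2c at 1.04.

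Genes that Polycomb is known to silence were also read. Cdkn2b, at the Ink4a-Arf locus that encodes inhibitors of the cell cycle, was at 27 at day 0, 1.34 at day 8, 4.32 at day 12 and 0.721 in iPSCs, and its neighbour Cdkn2a at 0.504 and 0.16 at the end points. The summed Hox A level was 10.8 at day 0, 4.11 at day 8, 2.09 at day 12 and 0.172 in iPSCs, where 7 of 10 genes were at 0. Hoxa10 was at 4.32 at day 0 and had no read in any of 90 iPSCs, which allows a share of up to 3.33% of cells with a read. Hox D levels summed to 6.04 at day 0 and 0.0577 in iPSCs, Hox C levels to 4.07 and 0.146, and Hox B levels to 1.94 and 0.245. Only 2 Hox A genes met the minimum, and 0 genes of the Hox B, C or D clusters did. The summed Hox B and Hox C levels were 0 in the median day 0 cell, so these sums are low and rest on part of the cells. Of 30 developmental regulators, 24 were measured and 4 met the minimum. Among the 24, 9 were at 0 at day 0 and 5 in iPSCs, while their summed level was 19.3 and 8.47. The 4 that met the minimum are thus not a picture of the whole list. Msx1 (-2.22), Tbx15 (-2.08) and Meis1 (-1.02) were lower in iPSCs than at day 0, and Tbx3 (1.32), a gene also used in pluripotent cells, was higher. Tbx15 was higher at day 8, at 6.16, than at day 0, at 3.41. The levels of these genes and of the Polycomb members come from the same plates.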

How the data were processed

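Smart-seq2 libraries (Nextera XT, unstranded, single-end) of 672 labelled cells in 7 groups were sequenced by the authors. Per the methods, reads were aligned with STAR 2.5.3a to mm10, uniquely mapped reads were counted per gene with featureCounts, and counts were filtered, scaled and logged in Seurat. SAMtools is also named in the submitters' notes. The deposited values are the natural log of 1 + reads per 10000 gene-assigned reads of a cell (the methods state 100000). They were converted to the linear scale and multiplied to 100000. All 3980842 positive values were then whole numbers of reads (tolerance 0.01 reads, or 1e-06 relative), which gave the depths. The 567 cells had 4011 to 9744 genes with reads and at most 7.61% mitochondrial reads. No column other than those of the labelled cells was present (0 left out), and 5 index sheets were not used. Doublets were not called, and whether a well held more than 1 cell was not checked.

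Groups came from the time point and X chromosome labels. The members and lists were chosen with earlier results of these data known. All 32 members were named. From each further list, at most 4 genes in each direction were named, those with the largest log2 ratio between iPSCs and day 0 among genes past 2-fold. A group mean over cells was the level, with a pseudocount of 1, and 2-fold (a log2 ratio of 1) was the size called, among genes with a mean over the groups of at least 1. Exonic lengths, positions and overlaps came from GENCODE vM21 (the authors used vM16 of the same build). Scripts used Python 3.11.15, numpy 2.4.6, pandas 2.3.3 and scipy 1.17.1, and were tested on simulated data. Alternatives were a pseudocount of 0.1, median-of-ratios scaling, reads summed over cells, cells with at least 100000 reads, leaving out the highest cell of each gene and group, a minimum of 5 or none, leaving out the cells with markers of another type, other lengths, and thinning to 100000 reads.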

Additional observations from a re-analysis of the deposited data

How the results depend on the processing

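Each group is 1 plate, so no value here has an error between replicates. No paired analysis was possible because the numbers in the labels are wells of different plates and no group has a second sample. With a pseudocount of 0.1, which gives more weight to genes near 0, 1 PRC2 gene was at least 2-fold higher at day 9 than at day 8 (0 with a pseudocount of 1), 1 PRC1 gene at day 10 than at day 9 (0) and 2 PRC2 genes at day 12 than at day 10 (1). With it 2 PRC1 genes were lower at day 12 than at day 10 (0), and in iPSCs against day 12, 1 PRC1 gene was higher (0) and 2 were lower (1). With reads summed over cells, the count of PRC2 genes at least 2-fold above day 12 in iPSCs was 0, where means over cells gave 2. A minimum mean of 5 left fewer genes and so gave 0 PRC1 genes lower in iPSCs than at day 0 (4), 0 lower at day 8 than at day 0 (2), 1 PRC1 and 0 PRC2 genes higher at day 12 than at day 10 (2 and 1) and 0 PRC2 genes lower in Xi-Cast than in Xi-Mus cells (1). Day 12 against day 10 gave 3 PRC1 genes in place of 2 under 6 settings, since L3mbtl2 lies at the limit. With median-of-ratios scaling and no minimum, chosen after seeing the data, 4 PRC1 genes (2) and 1 PRC2 gene (0) were at least 2-fold lower at day 8 than at day 0. Of the other counts of PRC1 and PRC2 genes, 212 stayed within 1.5 times of the reported value, and no called log2 ratio of a member changed sign under any alternative run. The sizes were less stable than these counts. Among the checks of log2 ratios, 225 were labelled as moved and 1091 as the same, and among those of shares 143 and 369. Levels of Phf19 and of Cbx7 at day 0 rest on few cells, and depth limits what can be said of Auts2, Rybp, Phf1 and Ring1, the members with the fewest reads.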
